A study of Mus musculus with 6 samples.

Results

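The Ndrg family (N-myc downstream regulated genes) has 4 members in the mouse, Ndrg1, Ndrg2, Ndrg3 and Ndrg4, and all 4 were measured in whole brain RNA from mice with and without melanotransferrin. The members were taken by symbol, keeping every probe set annotated to exactly 1 of these genes and applying no filter on dim signals. This gave 10 of the 45037 probe sets of the table that were not array controls, and 4 of the 18193 genes with at least 1 probe set of a single symbol. Ndrg1 had 5 probe sets, Ndrg2 had 1, and Ndrg3 and Ndrg4 had 2 each. The family was chosen after 1 Ndrg1 probe set had been seen to be higher in the knockout in this same comparison. Its fold change was 3.10, taken from the scale log2(signal + 49.6). The differences between the groups for all 10 probe sets are therefore given as a description, with no test.

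The mice without melanotransferrin were 4 MTf -/- females, strain C57BL/6 - Lucy in the labels, each on 1 Affymetrix Mouse Genome 430 2.0 array. They were set against 2 MTf +/+ females of the same litter, strain C57BL/6. All 6 mice were 123 days old, untreated as far as the labels say, and each array held total RNA of 1 brain. The labels do not say how the melanotransferrin gene (Meltf) was disrupted, nor what "Lucy" stands for. Arrays are called knockout 1 to 4 and wild type 1 and 2 in the order of deposit, which pairs no animals.

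Ndrg proteins share an alpha/beta hydrolase fold but are not known to act as enzymes. Ndrg1 is named for its repression by N-myc, is induced by hypoxia and by iron chelation in many cell types, and is found in brain mainly in oligodendrocytes. In humans, its loss causes a demyelinating disease of peripheral nerves. Ndrg2 is a marker of astrocytes, Ndrg4 is a neuronal gene of brain, and Ndrg3 is a widely expressed relative whose protein binds lactate in hypoxic human cells. The genes lie on chromosomes 15 (Ndrg1), 14 (Ndrg2), 2 (Ndrg3) and 8 (Ndrg4) in assembly GRCm38.p6, so none is on the chromosome of Meltf, which is 16.

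Signals are the authors' deposited intensities on a linear scale. Log2 fold changes are knockout minus wild type on the scale log2(signal + 49.6), so those of dim probe sets are understated, and SE is the standard error from limma fitted to all 45037 probe sets. In that fit 0 probe sets (0.0%) passed an adjusted p of 0.05, while 3046 (6.76%) had an unadjusted p below 0.05. The groups did not overlap for 1 of the 10 Ndrg probe sets, which was higher in the knockout. Over all probe sets, 16.1% had no overlap, and 11.3% had none and were higher in the knockout. Because the family was picked from this comparison, nothing is read from those shares.

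The arrays themselves were uneven. In wild type 1, signals under 49.6 made up 24.5% of probe sets, against 17.6% to 20.2% elsewhere, and the 3′ to 5′ signal ratio of Gapdh was 1.05 there and 0.826 to 0.909 elsewhere. The same ratio of actin was 1.83 to 2.75 in the knockouts, highest in knockout 4, and 2.35 and 2.06 in wild types 1 and 2. Knockout 2 read low for cerebellar transcripts: Pcp2, a Purkinje cell gene, read 185.8 there and 22259.7 to 34049.7 on the other 5 arrays. Of the 13 measured cerebellar marker genes, 12 were lowest in knockout 2. Neuronal content was present on all arrays, with Snap25, a synaptic vesicle fusion protein, at 54355.4 to 61027.3 in the knockouts and 45275.1 and 60502.4 in wild types 1 and 2. Meltf, the targeted gene, read 80.7, 132.9, 155.9 and 84.1 in the knockouts and 146.5 and 228.7 in wild type, overlapping groups from a dim probe set whose place relative to the disrupted part of the gene is not given.

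Ndrg1 gave different answers on its different probe sets. On 1450977_s_at the signal was 425.2, 767.4, 478.7 and 536.3 in knockouts 1 to 4, against 181.5 and 106.3 in wild types 1 and 2. All 4 knockouts were above both wild types on it, and knockout 2 was the highest. The mean signal was 552 ± 151 (SD, n = 4) in knockout brains, against 144 ± 53.2 (SD, n = 2) in wild-type brains, a log2 fold change of 1.63 ± 0.31 (SE). The ending _s marks a probe set whose probes can match more than 1 transcript, which may belong to different genes.

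Median centring and quantile normalization kept the sign of that difference, at 1.42 and 1.46. Because all 4 knockouts were above both wild types, leaving out arrays or changing the offset could change only its size, not its sign. With any 1 array left out the log2 fold change lay between 1.35, without wild type 2, and 1.92, without wild type 1. It was 1.76 without both knockout 2 and wild type 1. The offset added before the log mattered more: with an offset 4 times larger the log2 fold change was 1.12, and with one 0.25 times as large it was 1.86.

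**Figure D1:**
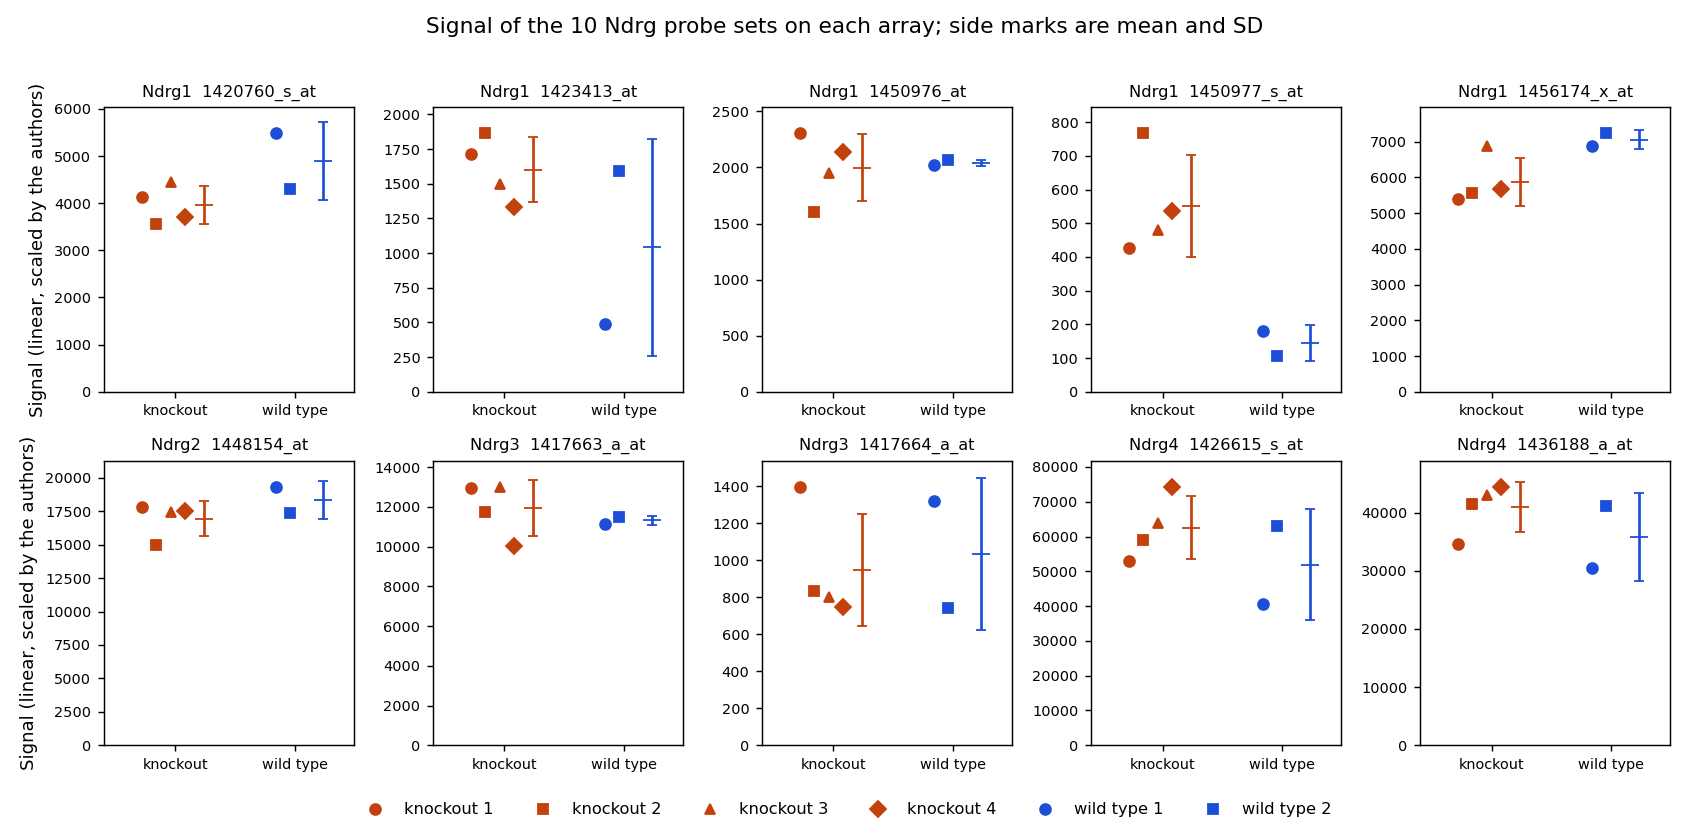
Signal (linear, scaled by the authors) of the 10 Ndrg probe sets, 1 panel each, with 4 knockout arrays in orange left of 2 wild-type arrays in blue. The marks beside the points are the mean and SD, and each vertical axis starts at 0. On Ndrg1 1450977_s_at the knockouts sit at 425.2 to 767.4, above the wild types at 106.3 and 181.5, while the groups overlap in the other 9 panels.

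The brightest Ndrg1 probe set pointed the other way. On 1456174_x_at the knockouts read 5401.5, 5548.8, 6877.5 and 5670.9, and the wild types 6868.7 and 7235.3. Knockouts 1, 2 and 4 were below both wild types, and knockout 3 lay between them, so the groups just overlapped. The mean signal was 5875 ± 678 (SD, n = 4) in knockout brains, against 7052 ± 259 (SD, n = 2) in wild-type brains. The log2 fold change was -0.27 ± 0.14 (SE), and from -0.35 to -0.23 with any 1 array left out. The ending _x marks a probe set in which some probes are very like other sequences.

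Probe set 1420760_s_at resembled it. Its signal was 4131.6, 3551.1, 4456 and 3712 in the knockouts and 5485 and 4308.8 in wild type, with knockout 3 between the wild types and the other 3 knockouts below both. The log2 fold change was -0.30 ± 0.15 (SE). It rested in part on wild type 1, the highest array: without that array it was -0.13, and without wild type 2 it was -0.47. On every one of the 6 arrays the deviations of 1456174_x_at and 1420760_s_at from their own means had the same sign.

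The Ndrg1 probe set 1423413_at had a low signal on a single array. It read 1716, 1865, 1495.8 and 1331.6 in the knockouts, against 485.8 in wild type 1 and 1595.7 in wild type 2. Wild type 2 lay inside the knockout range, and only wild type 1 lay below it, by a factor of 3.28 against wild type 2. The log2 fold change of 0.80 ± 0.36 (SE) moved to -0.0056 when wild type 1 was left out and to 1.61 when wild type 2 was.

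The last Ndrg1 probe set, 1450976_at, had a difference close to 0. Its signal was 2305.6, 1605.2, 1949.1 and 2135.3 in the knockouts and 2019.4 and 2061.9 in wild type. Both wild types fell in the middle of the knockout range, whose lowest value was that of knockout 2. The log2 fold change was -0.041 ± 0.16 (SE).

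**Figure D2:**
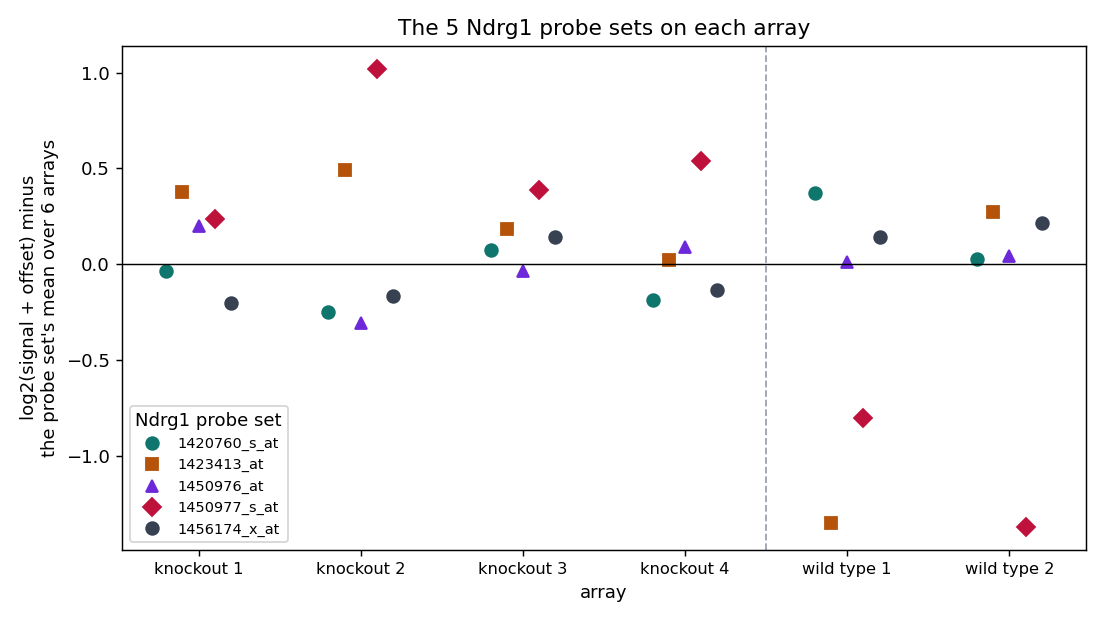
Deviation of each of the 5 Ndrg1 probe sets from its own mean over the 6 arrays, as log2(signal + offset), with the 4 knockout arrays left of the dashed line and the 2 wild-type arrays right of it. Probe set 1450977_s_at is at 0.23 to 1.02 in the knockouts and at -0.80 and -1.37 in wild type, 1423413_at is at -1.35 in wild type 1 alone, and the other 3 stay between -0.31 and 0.37.

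Taking the Ndrg1 probe sets side by side, 2 had a higher and 3 a lower mean log2 value in the knockout. Their log2 fold changes spanned 1.93, from -0.30 to 1.63. The upper end of that span is the value by which the family was chosen. Within each array, 1456174_x_at minus 1450977_s_at, each relative to its own mean, was -0.44, -1.18, -0.25 and -0.67 in the knockouts and 0.95 and 1.59 in wild type. A within-array difference shows that the 2 probe sets did not move together, not which of them followed the transcript. The probe sequences and their places in the gene were not used here.

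Ndrg2, the astrocyte member, differed between the groups by less than the standard error. Its 1 probe set, 1448154_at, read 17784.1, 14986.2, 17430 and 17541.1 in the knockouts, against 19339.2 and 17347 in wild type. Knockouts 1, 3 and 4 lay between the wild types, and knockout 2 was the lowest array. The mean signal was 16935 ± 1308 (SD, n = 4) in knockout brains, against 18343 ± 1409 (SD, n = 2) in wild-type brains, a log2 fold change of -0.12 ± 0.15 (SE). It was -0.038 without wild type 1, -0.059 without knockout 2 and 0.020 without both.

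Other astrocyte genes were set beside Ndrg2. Of the 14 astrocyte markers, all measured, 0 passed the adjusted threshold in either direction, 5 had a higher and 9 a lower log2 value in the knockout, and their median log2 fold change was -0.17 against 0.024 over all genes. That median was -0.078 without knockout 2, -0.091 without wild type 1, -0.11 without wild type 2 and -0.072 without both knockout 2 and wild type 1. Over all genes, with 1 probe set each, 0.0% passed and 53.6% were higher. The 3 with the smallest unadjusted p were Gfap, the astrocyte filament protein, Aqp4, a water channel of astrocyte endfeet, and Mlc1, an astrocyte membrane protein. Gfap had a log2 fold change of -0.63 ± 0.17 (SE), Aqp4 of -0.64 ± 0.18 (SE) and Mlc1 of -0.52 ± 0.19 (SE), each with a limma adjusted p of 0.738. Without wild type 1 they were at -0.38, -0.43 and -0.21. The 5 higher markers, each brighter than these 3, had log2 fold changes from 0.011 to 0.305. The astrocyte list level was 0.0035, -0.16, -0.027 and -0.12 in the knockouts and 0.22 and 0.078 in wild type. This level is the mean log2 value of the list's genes relative to each gene's own mean and to all genes on the array. It was lowest in knockout 2 and highest in wild type 1, the same arrays that held the lowest and highest Ndrg2 signals. The oligodendrocyte, endothelial and cerebellar list levels were also lowest in knockout 2 and highest in wild type 1, so this match is not particular to astrocytes. In whole tissue, fewer cells of a type and less RNA per cell cannot be told apart, and the part of astrocyte content in the Ndrg2 values was not tested.

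Ndrg3 too differed by less than the standard error on both of its probe sets. On its brighter probe set, 1417663_a_at, the signal was 12954.5, 11720.4, 13015 and 10048.7 in the knockouts and 11147.5 and 11478.9 in wild type. Knockouts 1, 2 and 3 were above both wild types and knockout 4 below both, so the wild types lay inside the knockout range. The log2 fold change was 0.069 ± 0.15 (SE), and -0.14 after median centring. The ending _a marks a probe set that matches alternative transcripts of a single gene.

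The dimmer Ndrg3 probe set separated arrays without regard to genotype. On 1417664_a_at the signal was 1398.5, 835.9, 802.9 and 749.6 in the knockouts and 1322.6 and 741.3 in wild type. Knockout 1 and wild type 1 were high and the other 4 arrays were close together. The log2 fold change was -0.11 ± 0.28 (SE), moving to 0.29 when wild type 1 was left out and to -0.51 when wild type 2 was. The brighter Ndrg3 probe set did not show this split, and on 3 of the 6 arrays the 2 probe sets deviated from their means in opposite directions.

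Ndrg4, the neuronal member, was measured by probe sets that varied between arrays within each group. On 1426615_s_at the signal was 52874.6, 59130.1, 63864.1 and 74335.6 in the knockouts and 40556.8 and 63105.7 in wild type. On 1436188_a_at it was 34688, 41555, 43124.6 and 44485.3 in the knockouts and 30436.4 and 41147.7 in wild type. On both probe sets wild type 1 was the lowest array and knockout 1 the next lowest, wild type 2 lay within the knockout range, and knockout 4 was the highest. The 2 probe sets deviated in the same direction on all 6 arrays.

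The Ndrg4 differences rested on wild type 1. The log2 fold changes were 0.29 on 1426615_s_at and 0.20 on 1436188_a_at, with standard errors of 0.24 and 0.20. Without wild type 1 they were -0.024 and -0.013, and without wild type 2 they were 0.61 and 0.42. After quantile normalization they were 0.10 and 0.11, and after median centring 0.081 and -0.0098. The 451 probe sets in the top 1% by mean also read low on wild type 1. Their median deviation from each probe set's mean was -0.30 in wild type 1 and 0.14 in wild type 2. In the knockouts it was -0.16, 0.036, 0.15 and 0.15. Over the top 5% the median was -0.071 in wild type 1 and -0.085 in knockout 1. Over all probe sets it was -0.12 in wild type 1 and 0.036 in knockout 1. The part of these shifts in the Ndrg4 values was not tested.

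Some neuronal markers were also lowest in wild type 1. It was the lowest array for 5 of the 16, all measured, among them Snap25, and the other arrays were lowest for 0 to 4 each. Over all probe sets wild type 1 was the lowest array for 31.0%, a similar share, so nothing particular to neuronal markers is read from this count. Of the 16, 0 passed the adjusted threshold, 11 had a higher and 5 a lower log2 value in the knockout, and the median log2 fold change was 0.058, and from 0.012 to 0.071 with any 1 array left out. The list level, which unlike the Ndrg4 signals is relative to all genes on the array, was -0.068, 0.12, -0.016 and -0.063 in the knockouts and 0.031 and -0.0082 in wild type. The 3 with the smallest unadjusted p were Gap43, a growth cone protein, at 0.24, Nefh, the heavy neurofilament, at -0.26, and Syt1, the calcium sensor of synaptic vesicles, at 0.18. None of these passed, the smallest limma adjusted p being 0.755, for Gap43.

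**Figure D3:**
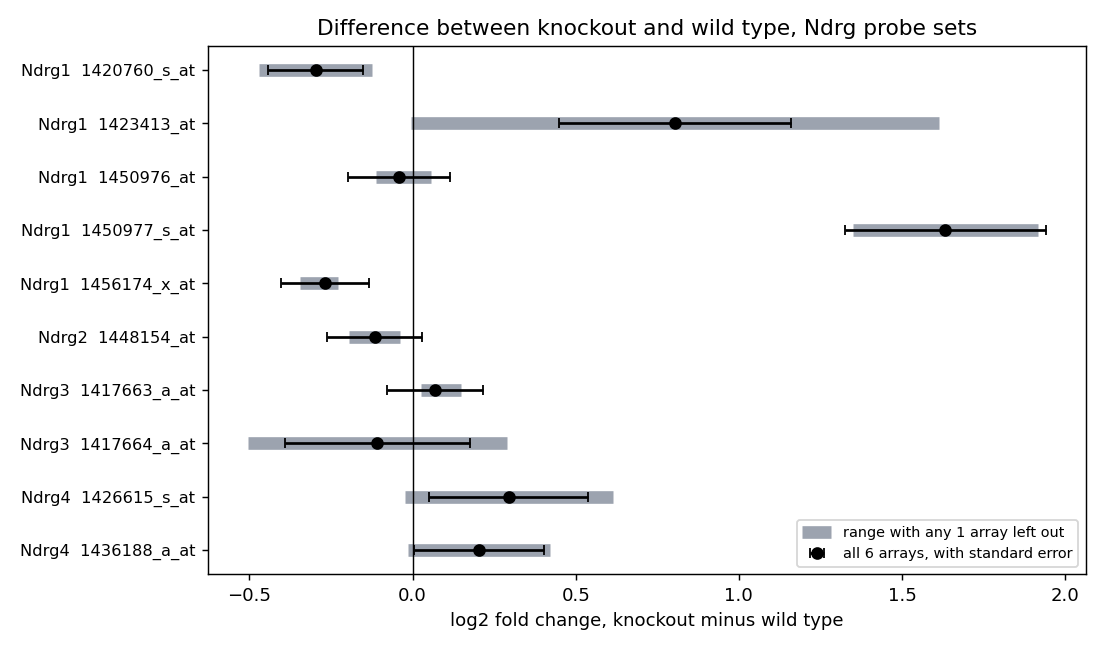
Log2 fold change, knockout minus wild type, of the 10 Ndrg probe sets, with points and bars for the estimate and its standard error from all 6 arrays, and grey bands for the range with any 1 array left out. The bands of 1450977_s_at (1.35 to 1.92), 1420760_s_at, 1456174_x_at, Ndrg2 and the brighter Ndrg3 probe set stay on one side of 0, and those of the other 5 reach across it. For 1450977_s_at the side was fixed in advance, because its groups did not overlap.

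Over the family, 5 probe sets had a positive log2 fold change, against 60.3% of all probe sets, and 5 a negative one, with a median of 0.014 against 0.078 over all probe sets. Median centring moved the median over all probe sets to -0.14, and then 3 of the 10 were positive, the second Ndrg4 probe set and the brighter Ndrg3 probe set having changed sign. Quantile normalization changed no sign among the 10. Leaving out wild type 1 also left 3 positive. Wild type 1 was the highest or lowest of the 6 arrays for 5 of the 10 probe sets, against 45.9% of all probe sets, and knockout 2 for 5 of the 10, against 31.3%. The values of both arrays are therefore given beside each result above.

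Genes upstream of the Ndrg proteins were examined as a list of 19 measured regulators, mainly transcription factors and kinases. Of these, 0 passed the adjusted threshold, 11 had a higher and 8 a lower log2 value in the knockout, and the median was 0.065. With any 1 array left out that median ran from -0.070 (wild type 2 left out) to 0.059 (knockout 4 left out), and it was -0.024 when wild type 1 was left out. At an unadjusted p below 0.05 in limma were 2 higher and 1 lower, against 6.49% of all genes with 1 probe set each. Sgk1, the kinase that phosphorylates Ndrg1 and Ndrg2, read 9595.3, 7480.5, 7298 and 8262.7 in the knockouts and 6743.6 and 3786.5 in wild type. Its knockouts were all above both wild types, with a log2 fold change of 0.68 ± 0.21 (SE) (limma adjusted p = 0.738), moving to 0.27 when wild type 2 was left out and to 1.09 when wild type 1 was. Egr1, an activity-induced factor, and Arnt, the partner of the hypoxia-inducible factors, had log2 fold changes of 0.48 and -0.52 with the same adjusted p. Sgk1 and Egr1 had no other probe set, while the other 4 probe sets of Arnt had the opposite sign, from 0.0045 to 0.84.

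The hypoxia-inducible factors and N-myc showed no difference that passed. Hif1a read 3281.6, 2310.6, 3042.2 and 4084 in the knockouts and 5208.8 and 3534.1 in wild type, overlapping groups with a log2 fold change of -0.46 ± 0.22 (SE). It was -0.18 without wild type 1. Epas1, the related factor abundant in endothelium and astrocytes, was at -0.31, and -0.085 without wild type 1. Mycn, which encodes N-myc, was at -0.11 ± 0.22 (SE), and 0.043 without wild type 2. Probe sets disagreed here too: 2 of the other 3 of Hif1a were positive, up to 0.88, and both others of Mycn were at 0.36 and 0.49, while the other of Epas1 was at -0.50.

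Hypoxia targets other than the Ndrg genes did not lie to one side. Of 24 measured, 0 passed the adjusted threshold and 0 had an unadjusted p below 0.05 in limma, 10 were higher and 14 lower in log2 value, and the median was -0.021 against 0.024 over all genes. That median was 0.042 without knockout 1, 0.030 without wild type 1 and -0.054 without wild type 2. Vegfa, the endothelial growth factor, read 1121.5, 1212, 1554.6 and 946.9 in the knockouts and 1229.4 and 1162.8 in wild type, with both wild types inside the knockout range. Its log2 fold change was -0.0065 ± 0.19 (SE), and 0.63 on its other probe set. Slc2a1, the glucose transporter of the blood-brain barrier, was at -0.27, and 0.020 without wild type 1. The smallest unadjusted p belonged to Car9, a carbonic anhydrase, at 0.93 ± 0.43 (SE). Car9 read 275.4, 197.6, 252.1 and 310.3 in the knockouts and 47.1 and 215 in wild type, and was at 0.21 without wild type 1. Ddit4, an inhibitor of mTOR signalling, was at 0.48, and 0.066 without wild type 1.

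Genes of the cellular iron response were lower more often than higher, with 3 higher and 8 lower of 11 measured, a median of -0.13 against 0.024 over all genes, and 0 past the adjusted threshold. That median was -0.038 without wild type 2. Tfrc, the transferrin receptor, which is on both this list and the hypoxia list, read 5735.3, 5145.8, 6661.8 and 5923.4 in the knockouts and 7199.9 and 6543 in wild type. Knockout 3 lay between the wild types and the others below both, giving -0.23 ± 0.14 (SE) on the log2 scale, against 0.17 and 0.28 on its other probe sets. Ncoa4, the ferritin receptor for autophagy, and Fbxl5, an iron-sensing ubiquitin ligase subunit, were at -0.32 and -0.32, the second of them at 0.026 without knockout 2 and wild type 1, and the other probe set of Ncoa4 was at 0.11. The list level was 0.062, -0.11, -0.049 and -0.075 in the knockouts and 0.053 and 0.12 in wild type.

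Oligodendrocyte markers were set beside Ndrg1. Of 15 measured, 0 passed the adjusted threshold, 2 were higher and 13 lower in log2 value in the knockout, and the median was -0.14 against 0.024 over all genes. That median was -0.26 without wild type 2 and -0.22 without knockout 3. The list level was -0.12, -0.18, 0.084 and -0.056 in the knockouts and 0.21 and 0.058 in wild type, so knockout 3 was above wild type 2 and the groups overlapped. Knockout 3 was also the 1 knockout above a wild type on Ndrg1 probe sets 1456174_x_at and 1420760_s_at. Like the oligodendrocyte level, 1420760_s_at was lowest in knockout 2 and highest in wild type 1. Unlike it, 1456174_x_at was lowest in knockout 1 and highest in wild type 2. Probe sets 1450977_s_at and 1423413_at were highest in knockout 2, where the oligodendrocyte level was lowest. The markers with the smallest unadjusted p were Ermn, a cytoskeletal protein of myelinating oligodendrocytes, at -0.37, Mal, a myelin proteolipid, at -0.34, and Olig1, a lineage transcription factor, at -0.31 (limma adjusted p from 0.738 to 0.744). Mbp, myelin basic protein, was at 0.16 ± 0.26 (SE), and -0.20 without wild type 1. The other probe set of Mal was at 1.07 and that of Ermn at -0.47, and 2 of the other 7 of Mbp were negative, down to -0.62. Of the 26 genes named outside the family in these lists and array checks, 16 had more than 1 probe set, and 9 of those had one of opposite sign. The part of oligodendrocyte content in the Ndrg1 values was not tested.

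Of the other lists, 11 microglial, 11 endothelial, 8 choroid plexus, 5 blood and 8 peripheral nerve and meningeal genes were measured, and 0 passed the adjusted threshold. Their medians ran from -0.36 for nerve and meninges to 0.010 for microglia, and the cerebellar list, with 13 measured, 0 higher and 13 lower, had a median of -0.98, which was -0.23 without knockout 2. Single arrays moved other medians too: that of microglia was -0.040 without knockout 2 and -0.054 without wild type 1, and that of endothelium, -0.26 with all arrays, was -0.058 without wild type 1 and 0.037 without both knockout 2 and wild type 1. The choroid plexus median of -0.29 was -0.13 without wild type 2 and -0.47 without knockout 4, and the blood median of -0.17 ran from -0.40 (wild type 2 left out) to -0.039 (knockout 4 left out), at -0.32 when knockout 2 was left out. The cerebellar level was 0.56, -2.61, -0.010 and 0.61 in the knockouts and 0.74 and 0.72 in wild type, which places knockout 2 far below the rest and knockout 3 between. Median centring, which lowers every log2 fold change alike, took the positive list medians below 0, to -0.16 for neurons, -0.15 for the upstream regulators and -0.20 for microglia. Quantile normalization took that of the upstream list to -0.0079.

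**Figure D4:**
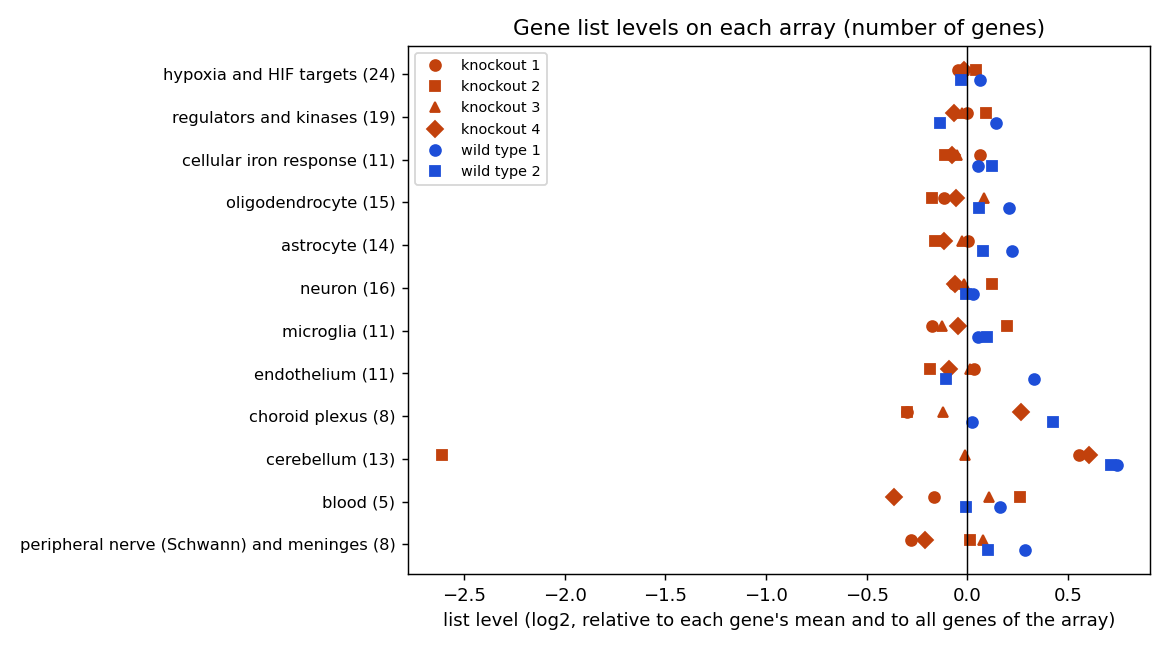
Level of each gene list on each array, as the mean log2 value relative to each gene's mean and to all genes of the array, with the number of measured genes in brackets, knockouts in orange above wild types in blue. The cerebellar list is at -2.61 in knockout 2, and all other levels lie between -0.36 and 0.74.

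The genes whose values over the 6 arrays were closest to those of the members were found by the root mean square difference between centred log2 values. For Ndrg1 1450977_s_at they were Dct (0.201), Bcl11a (0.222) and Fank1 (0.223), all dim probe sets in wild type: Dct read 166.2, 259.7, 208.7 and 278.5 in the knockouts and 77.3 and 36.2 in wild type. Among single-symbol probe sets of other genes in the 60% with the highest means, none lay within 0.1 of this one. Its own root mean square deviation from its mean was 0.823. The same spread was 0.17 for 1456174_x_at, 0.108 for Ndrg2, 0.128 for the brighter Ndrg3 probe set and 0.273 for Ndrg4 1426615_s_at. Counts within 0.1 depend on this spread and cannot be compared between members. For Ndrg1 1456174_x_at the closest was Wipi1 (0.0184), with 177 probe sets within 0.1. For Ndrg2 it was H2-K1 (0.0271), with 835 within 0.1, and for the brighter Ndrg3 probe set Tmem30a (0.0422), with 381. For Ndrg4 1426615_s_at the closest were Entpd7 (0.0314), Rps24 (0.0405) and Smarca4 (0.0426), with 149 within 0.1. Rps24, a ribosomal protein gene, read 46692.2, 51731.1, 53797.6 and 65755.2 in the knockouts and 36735.6 and 58136.8 in wild type, the order of arrays seen for Ndrg4 1426615_s_at but for knockout 3 and wild type 2. These matches describe 6 arrays and say nothing of shared control.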

How the data were processed

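Brain RNA of 6 mice was measured on 1 array each. The authors deposited linear signal intensities, 1 for each probe set on each array. GCOS 1.3 is the tool named, per the submitters' processing notes, while the summary method and detection calls are not stated there. The trimmed mean of the deposited intensities was equal on all arrays, so they had been scaled. Of 45101 probe sets, 64 controls were left out. Symbols came from the platform annotation, set against GRCm38.p6 gene identifiers, which changed 0.

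Values were taken to log2(signal + 49.6), the offset being the 20th percentile of the table, with no dim filter. The contrast was fitted to all probe sets with lmFit and eBayes with an intensity trend (limma 3.58.1, R 4.3.3), with 4 residual degrees of freedom and Benjamini-Hochberg adjustment over 45037 probe sets. The fit was tested on simulated data with independent noise. The changes put in were larger than any Ndrg difference and only in brighter probe sets. That test says nothing of smaller differences or of shifts shared by a whole array. Plots were drawn in Python 3.11.15. Precision is limited by how few arrays there are, and p-values measure the spread between mice and arrays combined. For lists, each gene was represented by its probe set of highest mean. Named were all Ndrg probe sets, set reference genes, the 3 list members with the smallest p, and the closest genes among the brighter 60% of probe sets. Lists that only describe array content had no members picked out. Scaling, offset, dim filter, trend and arrays left out were varied. The members and lists were chosen with earlier results of these data known.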

Additional observations from a re-analysis of the deposited data

Results flagged for a closer look

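In the 4 knockouts, 2 of 35 probe sets and list levels had 1 array far from the other 3, by the gap to its nearest neighbour over the whole range. Chance alone flags about 1 in 20, so 2 of 35 is near that rate and nothing is read from the count. The 35 also share the same 4 arrays and are not independent. Both flagged items were low in knockout 2. For Ndrg2 1448154_at the ratio was 0.882, with 14986.2 in knockout 2 against 17430 to 17784.1 in the other knockouts. For Pcp2, the Purkinje cell gene, it was 0.943, with 185.8 against 23667.6 to 31264.3. The part of the low cerebellar transcripts of this array in the Ndrg2 value was not tested.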

How the results depend on the processing

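The count of probe sets past an adjusted p of 0.05 in limma was 0 with all arrays and from 0 to 171 with 1 array left out, the 171 without wild type 2, and the count with an unadjusted p below 0.05, 3046 with all arrays, ran from 1624 (without wild type 1) to 5336 (without wild type 2) and was 1568 without both knockout 2 and wild type 1. The number of the 10 Ndrg probe sets with a positive log2 fold change was 5, from 3 to 6 with 1 array left out, and 3 after median centring. The larger and the smaller offset changed no sign among the 10. The dim filter, which all 10 passed, and the model without a trend leave each log2 fold change as it is. Those settings could therefore change no sign. Log2 fold changes of other named genes turned sign without both knockout 2 and wild type 1 for Fbxl5 (0.026), Mbp (-0.19), Slc2a1 (0.027), Snap25 (-0.061) and Vegfa (0.024), after median centring for Mbp (-0.050), Snap25 (-0.065) and Syt1 (-0.031), and after quantile normalization for Mbp (-0.057) and Snap25 (-0.040). With 1 array left out the ranges were -0.20 to 0.53 for Mbp, -0.25 to 0.043 for Mycn, -2.34 to 0.0085 for Pcp2, -0.56 to 0.020 for Slc2a1, -0.060 to 0.36 for Snap25 and -0.13 to 0.098 for Vegfa. The cause of these shifts was not tested. No paired analysis was possible because the labels give no numbers that the groups share. Signals near the offset, such as those of Ndrg1 1450977_s_at in wild type, limit the size of its fold change.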
